A study of Mus musculus with 2 samples.

Results

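The 7 genes described here make, bind and break down retinoic acid in the thymic stroma. They were taken by name from the 32285 features of 2 single-cell libraries, and their levels were read in cell classes set by marker genes that include none of the 7. Aldh1a1, Aldh1a2 and Aldh1a3 encode the aldehyde dehydrogenases that oxidise retinaldehyde to retinoic acid, Dhrs3 encodes a reductase that turns retinaldehyde back to retinol, Crabp1 and Crabp2 encode cellular retinoic acid binding proteins, and Cyp26b1 encodes a cytochrome P450 that oxidises retinoic acid to inactive products. All 7 were detected in both libraries and all 7 passed the filter on low counts.

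Both libraries, called library 1 and library 2 after their replicate numbers, hold CD45-depleted total thymic stroma of mice of the genotype E2F_M11. In this genotype 2 E2F binding sites in the proximal promoter of Foxn1, the transcription factor that directs thymic epithelial development, were removed by CRISPR-Cas9. The deletion is shared by every cell described here, and wild-type stroma was not analysed here, so the comparisons are between cell classes of the same libraries and not between genotypes. The labels give neither the age nor the sex of the mice, nor whether the libraries came from separate animals. The p-values measure how far class differences varied between these 2 libraries, after a shift shared by all classes was taken out. That variation may be technical.

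Retinoic acid is made inside a cell from retinol in 2 oxidation steps and acts on nuclear receptors in the same cell or its neighbours. A tissue therefore sets where the signal is high by placing the synthesising aldehyde dehydrogenases in some cells and the CYP26 enzymes in others, and the binding proteins hand retinoic acid to the nucleus (Crabp2) or are thought to hold it in the cytoplasm (Crabp1). In the thymus, retinoic acid from mesenchyme is known to restrain the growth of cortical epithelium.

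Library 1 held 41075328 UMIs (unique molecular identifiers, each standing for 1 captured transcript) in 5110 barcodes, and library 2 held 42583831 in 19163. After filtering, 3588 and 8186 cells remained, with medians of 8727 and 1874 UMIs per cell, so library 1 was the deeper one per cell. Cells were placed in 15 classes, which held 2158 cells (60.1%) of library 1 and 3871 cells (47.3%) of library 2. The libraries shared 30 barcodes, of which 13 were kept in both. A class is named after its markers: 4 fibroblast classes (Pi16, Cxcl14/Col15a1, Inmt/Penk and Postn), mesothelium, mural cells, endothelium, 7 epithelial classes (cortical epithelial cells or cTEC, Aire medullary cells or Aire mTEC, Ccl21a mTEC, and tuft, keratinocyte, microfold and secretory cells) and thymocytes left after depletion. Levels are CPM, the UMIs of a gene per 1000000 UMIs of all cells of a class in a library, and bracketed ranges are exact Poisson 95% intervals, which cover counting error only. Where a class had 0 UMIs, the limit given is the level that 3 UMIs would have had.

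Among the 15 classes, the 3 aldehyde dehydrogenases had their highest levels in the supporting tissue and not in epithelium. Mesothelium, the cell layer that lines body cavities and the surface of their organs, was highest for Aldh1a2 and Aldh1a1, and Pi16 fibroblasts, which carry markers of capsular and adventitial fibroblasts, were highest for Aldh1a3. The 7 epithelial classes were low in Aldh1a1 and Aldh1a2. Aire mTEC, cTEC and secretory cells held a moderate level of Aldh1a3, and Ccl21a mTEC, microfold and tuft cells a lower one. Epithelial cells outside the 7 classes had 35.0 and 31.7 CPM of Aldh1a1.

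Aldh1a2 (ENSMUSG00000013584, chr9:71215789-71296243, plus strand, GRCm38) had by far its highest level in mesothelium. It had 377 CPM [342 to 415] in mesothelium of library 1, from 420 UMIs in 72 of 79 cells, and 346 CPM [230 to 500] in library 2, from 28 UMIs in 8 of 18 cells. No other class exceeded 11.7 CPM, the level of Cxcl14/Col15a1 fibroblasts in library 2, and mural cells, endothelium, cTEC, microfold and secretory cells had 0 UMIs in both libraries. In UMIs rather than levels, mesothelium held 60.8% of all Aldh1a2 UMIs of library 1 and 25.2% of those of library 2, where the larger class of Cxcl14/Col15a1 fibroblasts held 21.6%. The mesothelial signal was spread over the class: in library 1 it took 18 cells to reach 50% of the UMIs. Mesothelium averaged 361 ± 22.0 CPM (SD, n = 2 libraries), and the next class, Postn fibroblasts at 7.73 ± 4.66 CPM, could not be separated from those below it.

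Aldh1a1 (ENSMUSG00000053279, chr19:20492715-20643465, plus strand) differed in level across the mesenchyme. It had 203 CPM [177 to 231] in library 1 and 247 CPM [151 to 382] in library 2 in mesothelium, 122 and 147 CPM in Inmt/Penk fibroblasts, 93.3 and 96.8 CPM in Pi16 fibroblasts, 75.8 and 56.7 CPM in Cxcl14/Col15a1 fibroblasts, and 26.5 and 17.8 CPM in Postn fibroblasts. The ranges of the 2 libraries did not overlap between any of these neighbours, but each range is 2 values. No edgeR test between Pi16, Inmt/Penk and Cxcl14/Col15a1 fibroblasts passed for Aldh1a1. The adjusted p was 0.860 for Pi16 against Inmt/Penk, 0.392 for Pi16 against Cxcl14/Col15a1 and 0.372 for Inmt/Penk against Cxcl14/Col15a1 fibroblasts (edgeR). The order of these fibroblast classes is therefore that of their means only. The library 2 value in mesothelium rests on 20 UMIs in 5 cells, of which 12 were in 1 cell. Below Postn fibroblasts the order could not be read: mural cells had 6.24 and 34.1 CPM, Aire mTEC 4.95 and 7.19 CPM and Ccl21a mTEC 2.11 and 9.03 CPM. Endothelium had 0 UMIs in both libraries, which allows up to 6.77 and 11.5 CPM.

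The promoters of both mesothelial genes are shown because Aldh1a1 and Aldh1a2 shared their highest class. Each sequence is the stretch just before a transcription start in the RefSeq table (GRCm38.p6), ending before any annotated exon base; capitals mark the CCAAT box.
Aldh1a1, chr19:20601718-20601960, plus strand: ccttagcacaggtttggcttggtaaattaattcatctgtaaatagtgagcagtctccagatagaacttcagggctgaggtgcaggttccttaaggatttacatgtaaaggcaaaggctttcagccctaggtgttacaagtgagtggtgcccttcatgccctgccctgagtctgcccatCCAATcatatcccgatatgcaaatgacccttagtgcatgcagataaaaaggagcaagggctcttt
Aldh1a2, chr9:71215539-71215788, plus strand: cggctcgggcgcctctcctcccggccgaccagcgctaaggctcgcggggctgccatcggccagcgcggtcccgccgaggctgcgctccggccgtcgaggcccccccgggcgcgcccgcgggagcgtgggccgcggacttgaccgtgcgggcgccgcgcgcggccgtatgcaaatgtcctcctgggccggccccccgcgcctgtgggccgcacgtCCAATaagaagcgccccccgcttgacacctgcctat
Each stretch shown held 1 CCAAT, and 33.8% of the 32851 windows of 250 bases in the table held CCAAT on either strand. The table has 2 starts for Aldh1a1, and the stretch shown lies before the one inside the annotated gene; the window of the other start (chr19:20492333-20492582) held no CCAAT. G and C made up 46.4% and 42.8% of the 2 Aldh1a1 windows and 77.6% of the Aldh1a2 window, against a median of 52.4% over all windows. The table held 8 windows for 5 of the 7 genes, and none of the 8 contained 2 retinoic acid receptor half-sites spaced 5 bases apart, an element found in 0.0883% of all windows.

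**Figure D1:**
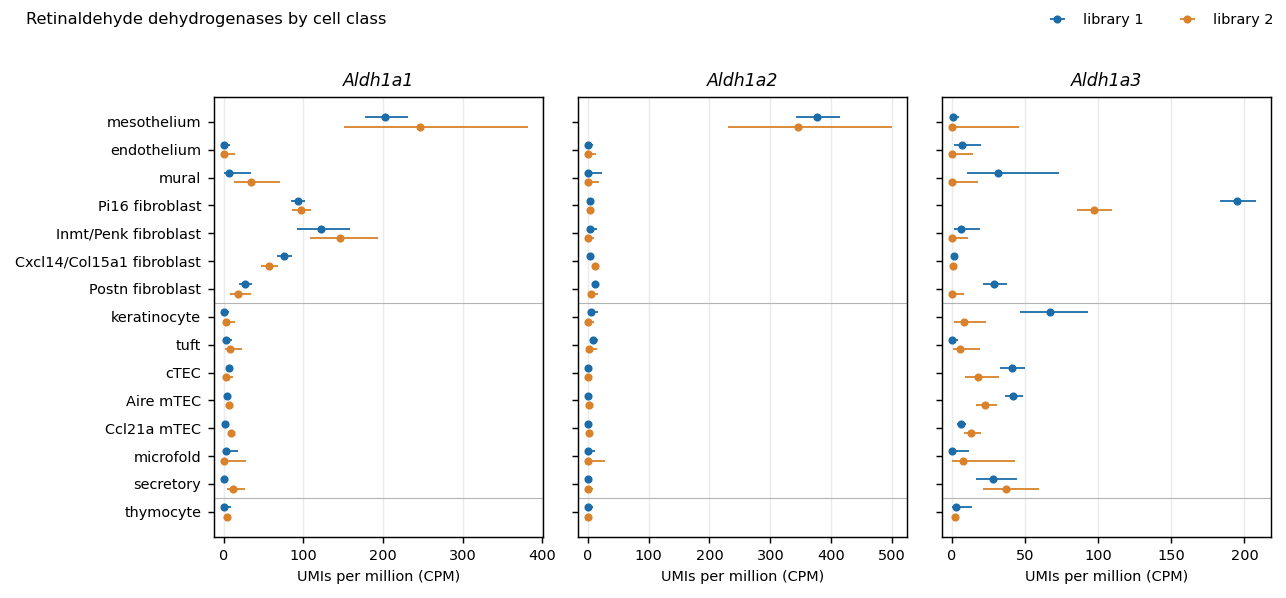
CPM of Aldh1a1, Aldh1a2 and Aldh1a3 (horizontal axis) in each of the 15 classes (down the page), with library 1 in blue, library 2 in orange and exact Poisson 95% intervals. Aldh1a2 stands at 377 and 346 CPM in mesothelium and at no more than 11.7 CPM elsewhere, Aldh1a1 varies over the fibroblast classes, and Aldh1a3 peaks in Pi16 fibroblasts.

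Aldh1a2 and Aldh1a1 were both higher in mesothelium than in the mean of the 4 fibroblast classes. For Aldh1a2 the log2 fold change was 6.17 ± 0.42 (SE; adjusted p = 1.71e-08 by edgeR's quasi-likelihood test), and the pooled counts gave a ratio of 71.1 [56.2 to 90.9]. For Aldh1a1 it was 1.67 ± 0.34 (adjusted p = 0.00124). These were 2 of 7 members, where 15% of all 11965 genes tested were called, 8.5% higher and 6.54% lower. The other members did not pass: Dhrs3 had 20.6 and 12.4 CPM in mesothelium, Cyp26b1 6 and 0 UMIs, Aldh1a3 1 and 0 UMIs, and Crabp1 and Crabp2 0 UMIs in both libraries. All 8 mesothelial markers were detected in the class in both libraries, but cells were gated on this same list. Their detection is therefore no separate evidence of what the cells are. Mesothelial cells also carried 148 and 147 fibroblast-marker UMIs per 10000 UMIs, against 173 to 321 per 10000 over the fibroblast classes. Aldh1a1 amounted to 13.7 and 16.8 per 1000 fibroblast-marker UMIs in mesothelium, against 3.36 and 3.94 in Pi16 fibroblasts. The mesothelial value of library 2 rests on 20 Aldh1a1 UMIs, of which 12 were in 1 cell. The part of fibroblast RNA in the mesothelial level of Aldh1a1 was not tested.

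Aldh1a3 (ENSMUSG00000015134, chr7:66390890-66427517, minus strand) was concentrated in Pi16 fibroblasts. It had 195 CPM [183 to 208] in library 1, in 284 of 402 cells, and 96.8 CPM [85.4 to 109] in library 2, in 133 of 559 cells. The 2 libraries thus differed beyond counting error for Aldh1a3, while Aldh1a1 in the same cells had 93.3 and 96.8 CPM. The other fibroblast classes were far lower: Cxcl14/Col15a1 fibroblasts had 4 UMIs (1.23 CPM) and 1 UMI (0.489 CPM), Inmt/Penk fibroblasts 3 and 0 UMIs, and Postn fibroblasts 52 UMIs in 13 of 171 cells (28.7 CPM) and 0 UMIs. Mesothelium had 1 and 0 UMIs.

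Aldh1a3 also appeared in epithelium, where Aire mTEC had 41.9 and 22.7 CPM, cTEC 40.7 and 18.0 CPM and secretory cells 27.9 and 36.6 CPM. Keratinocyte cells had 66.8 and 7.85 CPM, but 26 of the 34 UMIs of library 1 lay in 1 cell. Ccl21a mTEC were lower, at 6.02 and 13.2 CPM, and tuft cells had 0 and 2 UMIs. None of the neighbours between keratinocyte cells and Postn fibroblasts in this order differed beyond the spread of the 2 libraries.

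In Pi16 fibroblasts against Cxcl14/Col15a1 fibroblasts, Aldh1a3 and Dhrs3 were higher and Crabp1 was lower. Aldh1a3 had a log2 fold change of 7.38 ± 0.83 (adjusted p = 2.18e-06, edgeR), a ratio of pooled levels of 169 [72.4 to 523]. Dhrs3 rose by 1.16 ± 0.32 on the log2 scale (adjusted p = 0.0194), with 39.0 and 41.6 CPM in Pi16 fibroblasts, against 21.2 and 18.6 CPM in Cxcl14/Col15a1 fibroblasts; with thymocyte-marker cells left out its adjusted p was 0.0519. Crabp1 fell by 3.28 ± 0.78 on the log2 scale (adjusted p = 0.00762; 0.0731 with the DESeq2 Wald test), and by 1.93 within library 2 alone. Aldh1a1 had a log2 difference of 0.66 ± 0.39 that did not pass (adjusted p = 0.392). The 3 calls among 7 members stood beside 11.5% called over all genes, 5.5% higher and 6.02% lower.

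Aldh1a3 was also higher in Pi16 fibroblasts than in Inmt/Penk fibroblasts (adjusted p = 0.00212, edgeR), where the 1208 UMIs of Pi16 fibroblasts stood against 3 UMIs and the ratio was 43.0 [14.7 to 209]. It was the 1 call among the 7 members, beside 2.99% of all genes, 1.45% higher and 1.55% lower. Inmt/Penk fibroblasts differed from Cxcl14/Col15a1 fibroblasts in Dhrs3, with 75.1 and 85.1 CPM, against 21.2 and 18.6 CPM in Cxcl14/Col15a1 fibroblasts. That was a log2 fold change of 2.05 ± 0.37 (adjusted p = 0.00473), the 1 call among the 7 in a comparison with 1.4% of all genes called, 0.685% higher and 0.71% lower. Aldh1a1 in the same comparison had a log2 difference of 1.05 ± 0.43 (adjusted p = 0.372), and Cyp26b1, with 19 UMIs in 4 cells and 1 UMI, did not pass (adjusted p = 0.110).

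Because the libraries differed in depth, shares of positive cells were read after thinning each cell to 1000 UMIs. Aldh1a2 was then seen in 26.6% and 27.8% of mesothelial cells, against 0% and 0.180% of thymocytes, which are not expected to make it and served as background. Aldh1a1 was seen in 13.9% and 16.7% of mesothelial cells and in 16.9% and 8.64% of Inmt/Penk fibroblasts, against 0% and 0.659% of thymocytes. Aldh1a3 was seen in 13.9% and 6.98% of Pi16 fibroblasts, against 0.758% and 0.180% of thymocytes. The lower library 2 share of Aldh1a3 in Pi16 fibroblasts therefore remained at equal depth. For 0 of 132 thymocytes the share allowed is up to 2.27%. Before thinning, the median depths were 12254 and 2343.5 UMIs in mesothelium, 11630 and 2476 in Pi16 fibroblasts, and 2197.5 and 1741 in thymocytes.

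Aldh1a1 and Aldh1a3 were found in the same Pi16 fibroblasts as well as in different ones. At full depth 171 of 402 cells of library 1 and 62 of 559 of library 2 held UMIs of both. At 1000 UMIs per cell, library 1 had 33 cells with Aldh1a1, 56 with Aldh1a3 and 5 with both, and library 2 had 41, 39 and 2. In mesothelium of library 1, 54 of 79 cells held both Aldh1a1 and Aldh1a2 at full depth, and 2 did after thinning, among 11 with Aldh1a1 and 21 with Aldh1a2. The counts of double-positive cells thus moved with depth.

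Set against thymic epithelium, taken as the mean of cTEC, Aire mTEC and Ccl21a mTEC, the fibroblast classes were higher in 2 members and lower in 4. This 6 of 7 stood beside 58% of all genes called, 25.4% higher and 32.6% lower, and the median log2 fold change was -0.12 over all genes tested. Aldh1a1 was higher by 3.65 ± 0.31 on the log2 scale (adjusted p = 2.44e-09, edgeR), with pooled levels of 77.9 CPM in fibroblasts and 5.21 CPM in epithelium. Aldh1a2 was higher by 3.64 ± 0.99 (adjusted p = 0.00457), though this rests on 84 UMIs in fibroblasts and 10 in epithelium, its log2 difference was 1.91 within library 1 and 0.91 within library 2, and it did not pass with the cell holding the most UMIs left out of each sum (adjusted p = 1) or with clusters in place of gates (adjusted p = 0.142; there fibroblasts are the mean of a Pi16 class and an unclassed fibroblast class). Aldh1a2 was below the filter on low counts, and so not tested, with thymocyte-marker cells left out. Aldh1a3 did not pass: its fitted mean over 4 fibroblast classes was lower by 1.07 ± 0.49 (adjusted p = 0.0645), although the pooled level was 79.6 CPM in fibroblasts and 26.5 CPM in epithelium: 1208 of the 1268 fibroblast UMIs were in Pi16 fibroblasts.

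The low Aldh1a1 of epithelium was set beside the fibroblast RNA found in the same cells. Fibroblast-marker UMIs made up 0.66 to 6.6 per 10000 UMIs of the epithelial classes in library 1 and 6.4 to 14.7 per 10000 in library 2. Aldh1a1 in Ccl21a mTEC amounted to 3.17 and 6.22 per 1000 fibroblast-marker UMIs, against 3.36 and 3.94 per 1000 in Pi16 fibroblasts. In Aire mTEC it amounted to 20.2 and 11.3 per 1000, from 23 and 13 UMIs, and in cTEC to 19.4 and 2.97 per 1000. Aire mTEC of both libraries and cTEC of library 1 thus held more Aldh1a1 for their fibroblast-marker UMIs than Pi16 fibroblasts did. Mesothelium, which also carries fibroblast markers, had 13.7 and 16.8 per 1000, above Aire mTEC of library 2. The part of free fibroblast RNA in these epithelial levels was not tested.

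In endothelium against fibroblasts, 2 of 7 members were called, beside 23.3% of all genes, 11.6% higher and 11.8% lower. Aldh1a1 was lower (adjusted p = 9.08e-05, edgeR), with 0 UMIs in endothelium. With 3 UMIs over the class in place of its 0 the fold was 18.3, and the exact lower limit from counting error alone was 14.8. Dhrs3 was higher by 1.20 ± 0.31 on the log2 scale (adjusted p = 0.00671), with 74.5 and 76.8 CPM in endothelium; it did not pass with clusters in place of gates (adjusted p = 0.135). Mural cells gave 0 calls against fibroblasts, beside 8.2% of all genes, 4.47% higher and 3.73% lower; 1 member, Aldh1a1, had an unadjusted p under 0.05 (0.00984, edgeR), and the DESeq2 Wald test also called 0.

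Dhrs3 (ENSMUSG00000066026, chr4:144892827-144928209, plus strand), which removes the substrate of the aldehyde dehydrogenases, was the most widely spread of the 7. cTEC were highest, at 125 CPM [110.8 to 141] in library 1 and 118 CPM [92.3 to 149] in library 2. Thymocytes had 118 and 70.2 CPM, Inmt/Penk fibroblasts 75.1 and 85.1 CPM, endothelium 74.5 and 76.8 CPM, and keratinocyte cells 53.0 and 70.7 CPM. The libraries overlapped between cTEC and thymocytes, between thymocytes and Inmt/Penk fibroblasts, and between Inmt/Penk fibroblasts and endothelium. The lowest fibroblast class was Postn, at 15.4 and 13.3 CPM, and microfold cells had 1 and 2 UMIs.

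Dhrs3 was higher in cTEC than in the mean of Aire and Ccl21a mTEC by 1.89 ± 0.26 on the log2 scale (adjusted p = 5.77e-05, edgeR). Aire mTEC had 24.9 CPM in both libraries and Ccl21a mTEC 32.8 and 47.0 CPM. cTEC also carried the most thymocyte-marker UMIs of any epithelial class in library 1, 6.67 per 10000, and 5.52 per 10000 in library 2. Dhrs3 in cTEC amounted to 188 and 214 UMIs per 1000 thymocyte-marker UMIs, against 14.3 and 11.3 per 1000 in thymocytes themselves, and the log2 fold change was 1.77 with thymocyte-marker cells left out (adjusted p = 0.00501). At 1000 UMIs per cell, 13.5% and 15.9% of cTEC were positive, against 12.1% and 6.29% of thymocytes. The part of thymocyte RNA in the Dhrs3 level of cTEC was not tested.

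The mean of the 4 fibroblast classes was lower in Dhrs3 than thymic epithelium, by a log2 value of -0.61 ± 0.18 (adjusted p = 0.00706, edgeR). The call did not hold with thymocyte-marker cells left out (adjusted p = 0.192) or with clusters in place of gates (adjusted p = 0.0813). Fibroblasts outside the 4 classes (699 and 1054 cells) held 233 and 153 Dhrs3 UMIs and were not part of this mean. Keratinocyte cells were higher than mTEC by 0.99 ± 0.33 (adjusted p = 0.0475), a value close to the threshold that passed it under 4 of the 9 other settings.

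Cyp26b1 (ENSMUSG00000063415, chr6:84571414-84593908, minus strand), the catabolic member, was low in most classes and reached both libraries mainly in cTEC. It had 39.3 CPM [31.3 to 48.6] in cTEC of library 1, from 84 UMIs in 24 of 89 cells, and 52.4 CPM [35.9 to 74.0] in library 2, from 32 UMIs in 16 of 107 cells. Aire mTEC had 8.60 CPM in 8 cells and 17.7 CPM in 4 cells, and Ccl21a mTEC 3 and 4 UMIs. cTEC were higher than mTEC by 3.28 ± 0.83 on the log2 scale (adjusted p = 0.0218, edgeR; 0.146 with the DESeq2 Wald test). With Dhrs3 this made 2 of 7 members called in cTEC, beside 8.46% of all genes, 5.72% higher and 2.74% lower. At 1000 UMIs per cell, 4.49% and 6.54% of cTEC were positive, against 0% and 0.2996% of thymocytes.

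The largest single value of Cyp26b1, 108 CPM in keratinocyte cells of library 1, came from 55 UMIs that were all in 1 cell, and library 2 had 0 UMIs in 89 keratinocyte cells. The call of keratinocyte cells over mTEC (log2 fold change 3.55 ± 0.90, adjusted p = 0.0146, edgeR) therefore describes that 1 cell, and without it the value was -4.72. Inmt/Penk fibroblasts were likewise uneven, at 40.7 CPM in library 1 and 2.93 CPM in library 2. Fibroblasts were lower than thymic epithelium by a log2 value of -2.93 ± 0.96 (adjusted p = 0.0148), from 39 UMIs in fibroblasts and 195 in epithelium, but not with clusters in place of gates (adjusted p = 0.222).

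The stretches before the starts of Dhrs3 and Cyp26b1 are shown because both genes were higher in cTEC than in mTEC; capitals mark a TATA box core (TATAAA) and GC boxes (GGGCGG, or CCGCCC on the other strand).
Dhrs3, chr4:144892577-144892826, plus strand: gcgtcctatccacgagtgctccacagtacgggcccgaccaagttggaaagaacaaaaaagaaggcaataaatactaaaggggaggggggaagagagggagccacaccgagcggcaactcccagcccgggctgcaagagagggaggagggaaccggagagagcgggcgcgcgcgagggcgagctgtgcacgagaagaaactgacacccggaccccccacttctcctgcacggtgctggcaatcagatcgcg
Cyp26b1, chr6:84593909-84594060, minus strand: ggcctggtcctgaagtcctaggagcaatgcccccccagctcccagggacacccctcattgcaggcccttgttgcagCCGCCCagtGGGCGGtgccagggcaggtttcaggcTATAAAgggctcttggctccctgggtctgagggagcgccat
The Cyp26b1 stretch held 1 TATAAA, ending 35 bases before the first annotated exon base, and 2 GC boxes, 1 on each strand. TATAAA occurred in 12.4% and GGGCGG in 32.7% of all windows on either strand. The Dhrs3 stretch held no TATA box core, CCAAT box or GC box, and no AGGTCA, the half-site bound by retinoic acid receptors, which 14.02% of all windows hold. The windows of 2 later Dhrs3 starts held 2 and 1 CCAAT, all on the other strand. These windows overlap and share 1 of the sites, and both begin on an annotated exon base.

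**Figure D2:**
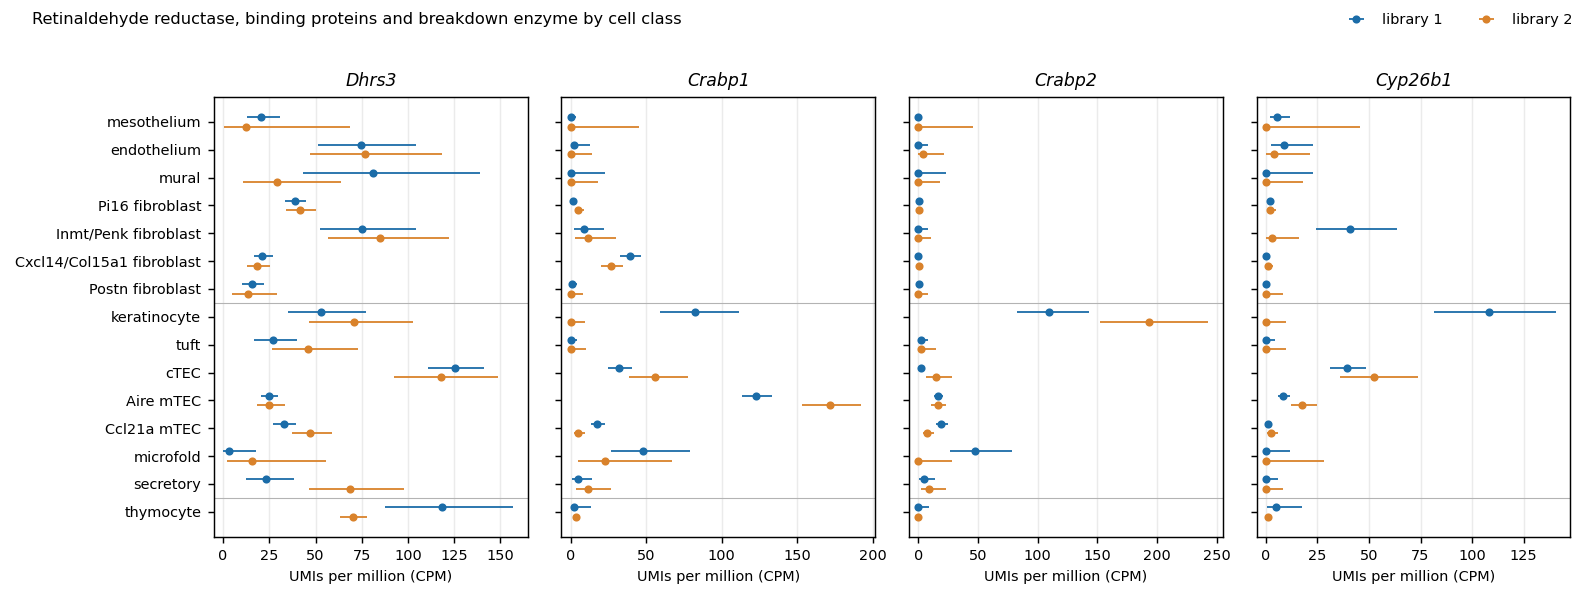
CPM of Dhrs3, Crabp1, Crabp2 and Cyp26b1 (horizontal axis) in the 15 classes (down the page), drawn as for the aldehyde dehydrogenases with library 1 in blue, library 2 in orange and exact Poisson 95% intervals. Dhrs3 is spread over most classes with cTEC at 125 and 118 CPM, Crabp1 is highest in Aire mTEC, Crabp2 in keratinocyte cells, and Cyp26b1 has both libraries raised in cTEC while its keratinocyte value is present in library 1 alone.

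Crabp1 (ENSMUSG00000032291, chr9:54764748-54773110, plus strand) was highest in Aire mTEC, but in few of those cells. It had 123 CPM [113 to 133] in library 1, from 572 UMIs in 28 of 230 cells, and 172 CPM [153 to 192] in library 2, from 311 UMIs in 22 of 171 cells. In each library 3 cells held 50% of the UMIs, and the single highest cell reached 142 UMIs (library 1) and 73 UMIs (library 2). The 13 cells with 5 or more UMIs in each library held 95.98% and 94.5% of the total. At 1000 UMIs per cell, 4.35% and 8.77% of Aire mTEC were positive, against 0% and 0.659% of thymocytes. The gene was thus high in a minority of Aire mTEC and near absent in the rest.

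The same pattern of few cells with many UMIs appeared in some other epithelial classes, but not in all. Ccl21a mTEC of library 2 held 8 Crabp1 UMIs with at most 2 in a cell, and secretory cells at most 4 in a cell. In cTEC the 68 UMIs of library 1 lay in 4 cells and the 34 of library 2 in 2 cells, and in Ccl21a mTEC of library 1, 57 of 58 UMIs lay in 1 cell. Cxcl14/Col15a1 fibroblasts differed: 127 UMIs in 51 cells with at most 10 in a cell in library 1 (39.0 CPM), and 54 UMIs in 36 cells with at most 3 in library 2 (26.4 CPM). It took 12 cells in each library to reach 50% of the UMIs there. Pi16 fibroblasts had 1.45 and 5.15 CPM, and mesothelium, mural cells and tuft cells had 0 UMIs in both libraries.

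**Figure D3:**
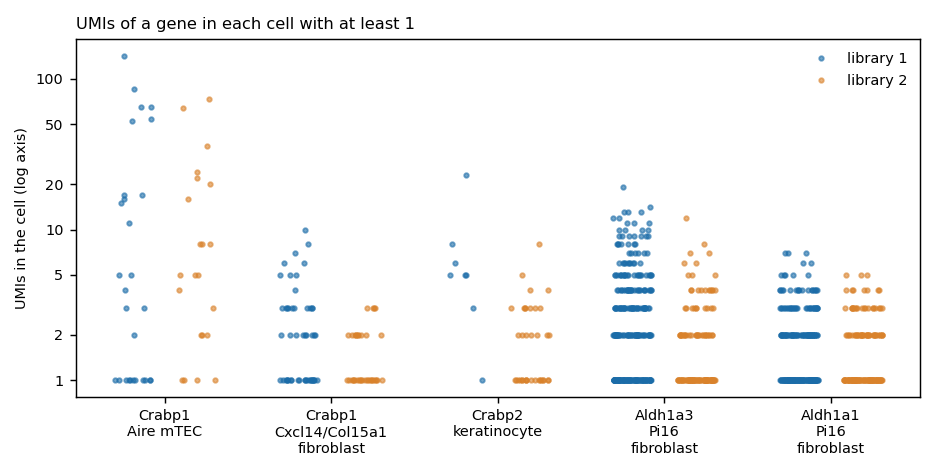
UMIs of a gene in each cell that had at least 1 (log axis), by library, for Crabp1 in Aire mTEC and in Cxcl14/Col15a1 fibroblasts, Crabp2 in keratinocyte cells, and Aldh1a3 and Aldh1a1 in Pi16 fibroblasts. Crabp1 reaches 142 and 73 UMIs in single Aire mTEC, while no Cxcl14/Col15a1 fibroblast holds more than 10.

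Crabp1 was lower in fibroblasts than in thymic epithelium by a log2 value of -2.90 ± 0.50 (adjusted p = 6.81e-05, edgeR). The call did not hold with thymocyte-marker cells left out (adjusted p = 0.110), and with clusters in place of gates the value was 0.57 (adjusted p = 0.683). Tuft cells were lower in Crabp1 than mTEC (adjusted p = 0.00376, edgeR), with 0 UMIs in the class. With 3 UMIs over the class in place of its 0 the fold was 34.1, and the exact lower limit from counting error was 27.7. Both values treat UMIs as independent, whereas most Crabp1 UMIs of mTEC lay in few cells. Neither is therefore a firm lower bound on the fold. Aldh1a3 was also lower in tuft cells than in mTEC, with 2 UMIs in tuft cells and an mTEC level 14.97 times as high [4.11 to 124] (adjusted p = 0.0407; 0.0868 with the DESeq2 Wald test). Neither call held with thymocyte-marker cells left out, where the adjusted p was 0.246 for Crabp1 and 0.148 for Aldh1a3 (edgeR). These were 2 of 7 members, beside 21.9% of all genes, 10.5% higher and 11.4% lower.

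Crabp2 (ENSMUSG00000004885, chr3:87948666-87953376, plus strand), the partner that carries retinoic acid to its receptors, was highest in keratinocyte cells, which carry the markers of cornifying epithelium. It had 110 CPM [83.1 to 143] in library 1, from 56 UMIs in 8 of 26 cells. Of these 56 UMIs, 23 lay in 1 cell. In library 2 it had 194 CPM [152 to 243], from 74 UMIs in 36 of 89 cells. Aire mTEC had 16.3 and 16.6 CPM, Ccl21a mTEC 19.5 and 7.83 CPM, and the 4 fibroblast classes held 6 UMIs in all. Mesothelium, mural cells and thymocytes had 0 UMIs in both libraries. At 1000 UMIs per cell, 3.85% and 20.2% of keratinocyte cells were positive, against 0% of thymocytes in both libraries.

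Keratinocyte cells were higher in Crabp2 than mTEC by 3.28 ± 0.51 on the log2 scale (adjusted p = 3.00e-04, edgeR), and within the libraries the difference was 2.57 in library 1 and 3.81 in library 2. Of the 7 members 3 were called higher in keratinocyte cells, beside 13.1% of all genes (9.34% higher and 3.76% lower), and 1 of the 3 is the Cyp26b1 value of a single cell. Fibroblasts were lower in Crabp2 than thymic epithelium by a log2 value of -5.12 ± 0.77 (adjusted p = 1.74e-05).

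**Figure D4:**
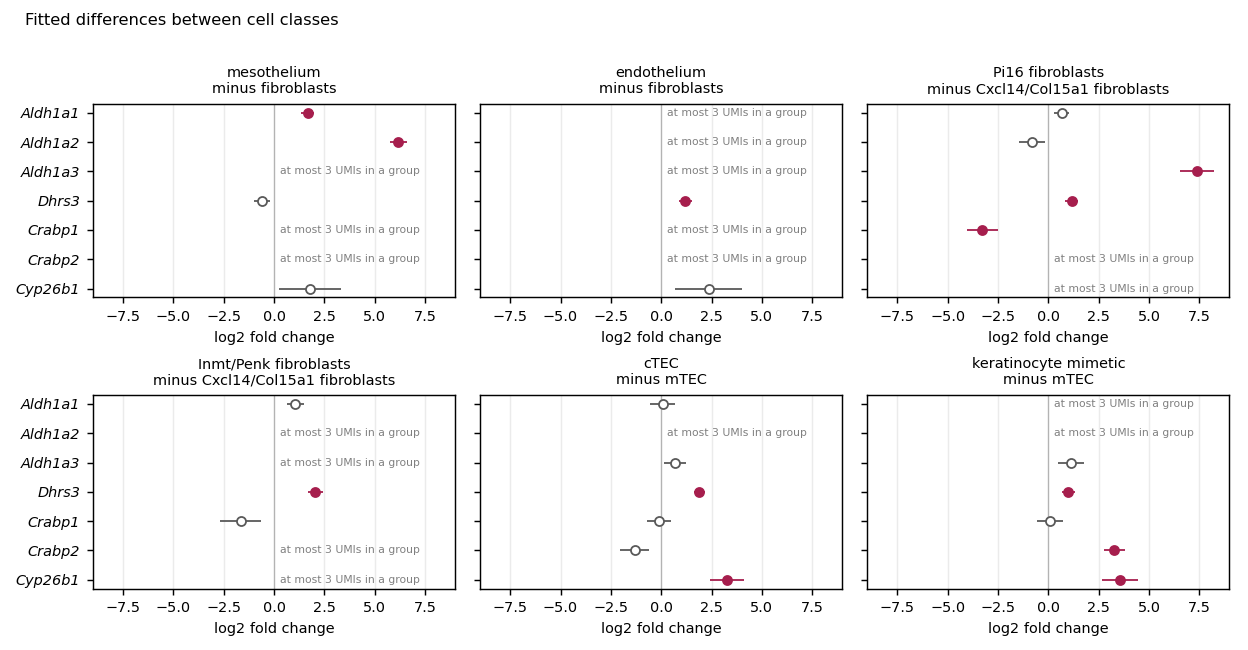
Fitted log2 fold changes ± SE (horizontal axis) of the 7 genes in 6 comparisons (mesothelium and endothelium against fibroblasts, Pi16 and Inmt/Penk against Cxcl14/Col15a1 fibroblasts, cTEC and keratinocyte cells against mTEC), with filled red points for adjusted p at or under 0.05, open points for values that did not pass, and grey words where a group had at most 3 UMIs. Aldh1a2 in mesothelium (6.17) and Aldh1a3 in Pi16 fibroblasts (7.38) lie farthest to the right among the values drawn, and Crabp1 in Pi16 against Cxcl14/Col15a1 fibroblasts (-3.28) lies farthest to the left.

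A list of 50 other retinoid genes was read in the same fit, and 35 of them passed the filter on low counts. Mesothelium had 7 of the 35 higher than fibroblasts and 5 lower, beside 8.5% and 6.54% of all genes. Lrp2, the endocytic receptor megalin, had 170 and 124 CPM in mesothelium, against 1 UMI in all 4 fibroblast classes. Dhrs9, a retinol dehydrogenase, had 62.8 and 98.8 CPM in mesothelium, and its 18 fibroblast UMIs all came from Pi16 fibroblasts of library 1. Rdh10, the main retinol dehydrogenase of the embryo, was higher by 1.22 ± 0.29 on the log2 scale (adjusted p = 0.00493, edgeR). Adh1, an alcohol dehydrogenase that also oxidises retinol, was lower, with 1 and 0 UMIs in mesothelium.

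Rdh10 ordered the fibroblast classes differently from Aldh1a1. Cxcl14/Col15a1 fibroblasts had 87.5 and 85.5 CPM of Rdh10, Postn fibroblasts 66.1 and 86.5 CPM, Pi16 fibroblasts 18.4 and 20.2 CPM, and Inmt/Penk fibroblasts 10.7 and 5.87 CPM. Against Cxcl14/Col15a1 fibroblasts, it fell by 2.00 ± 0.28 on the log2 scale in Pi16 fibroblasts (adjusted p = 2.40e-05, edgeR) and by 3.25 ± 0.44 in Inmt/Penk fibroblasts (adjusted p = 3.43e-04). In Pi16 fibroblasts 1 of the 35 listed genes was higher, Rbp4, the retinol carrier, with 19.2 and 18.8 CPM, against 1.84 and 0.489 CPM in Cxcl14/Col15a1 fibroblasts. The 4 that were lower were Rdh10, Tgm2, Rai14 and Rara, a retinoic acid receptor. Of all genes, 5.5% were higher and 6.02% lower. Rdh10 was the 1 listed gene called in Inmt/Penk against Cxcl14/Col15a1 fibroblasts, and Tgm2 was lower in Pi16 against Inmt/Penk fibroblasts.

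Fibroblasts had 14 of the 35 higher than thymic epithelium and 8 lower, beside 25.4% and 32.6% of all genes. Rarb, a retinoic acid receptor whose gene is itself a known target, was higher by 3.29 ± 0.42 on the log2 scale (adjusted p = 2.59e-06, edgeR), with 12.7 to 34.3 CPM in the fibroblast classes and no more than 6.55 CPM in cTEC, Aire mTEC and Ccl21a mTEC. Rarres2, Adh1 and Hic1 were the others with the largest rises. Among those that were lower, Fabp5, a fatty acid binding protein that also binds retinoic acid, had 23.3 to 224 CPM over the fibroblast classes, against 7647 and 7665 CPM in cTEC. Cyp26a1, a relative of Cyp26b1, had 12.2 and 16.4 CPM in cTEC, 43.4 and 23.2 CPM in Aire mTEC and 1 UMI in all fibroblasts. Stra6, a retinol transporter, had 47.1 and 40.3 CPM in Aire mTEC, and Stra8, known from germ cells, 44.1 and 60.2 CPM.

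In endothelium 4 of the 35 were higher and 3 lower than in fibroblasts, shares near the 11.6% and 11.8% of all genes. Rbp7, a cellular retinol binding protein, had 133 and 177 CPM in endothelium, against 1 UMI in fibroblasts, and Rarb had 0 UMIs in endothelium of both libraries. Fabp5 rose in mural cells, where Adh1 and Rarb were at 0 UMIs, and these were the 3 calls there, beside 4.47% of all genes higher and 3.73% lower. In cTEC against mTEC, Hic1 and Fabp5 were higher and Rdh12 and Rdh10 lower, beside 5.72% and 2.74% of all genes. In keratinocyte cells 7 were higher, led by Adh1 and Rdh12, and Adh5 was lower, beside 9.34% and 3.76% of all genes. Tuft cells had 2 higher, Adh1 with 100 and 16.1 CPM and Ncoa1, and 5 lower, among them Stra6, Stra8 and Rarres1 with 0 UMIs in tuft cells, beside 10.5% and 11.4% of all genes.

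The genes most like each member were found by the Pearson correlation of log2(CPM + 1) over the 30 sums of 15 classes and 2 libraries, which share libraries and depth, so these are descriptions. Wfdc1 (r = 0.905), Ptgis (0.898) and Clec3b (0.889) were most like Aldh1a1. Vat1l (r = 0.867), Tmem151a (0.843) and Crb2 (0.833) were most like Aldh1a2. Aldh1a3 had weaker likenesses, with Car8 (r = 0.727), Wnt10b (0.724) and Aif1l (0.661). For the reductase Dhrs3 they were Upf1 (r = 0.770), Prpf38a (0.738) and Srpk2 (0.733). For Crabp1 they were Tvp23a (r = 0.795), Batf3 (0.794) and BC037156 (0.775), and for Crabp2 Pinlyp (r = 0.887), Wfdc21 (0.880) and Nectin4 (0.872). Cyp26b1 was most like Cox8b (r = 0.845), Cnmd (0.763) and Lrrc15 (0.733).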

How the data were processed

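The deposited values are whole UMI counts that the authors left unnormalized; reads were aligned to mm10 with Cell Ranger 7 and handled with Seurat 4 per the submitters' processing notes, while the file header names Cell Ranger 6.0.0. Barcodes with 500 or more detected genes, 1000 or more UMIs and a mitochondrial share of 10% or less were analysed. Cells were gated into 15 classes by UMIs of fixed marker lists per 10000 UMIs; the thresholds were set after seeing the markers' distributions, not the members'. A class is a range of a score: 91 of 961 Pi16 fibroblasts, 232 of 850 Cxcl14/Col15a1 fibroblasts, 34 of 152 Inmt/Penk fibroblasts, 58 of 251 Postn fibroblasts, 9 of 97 mesothelial cells, 40 of 196 cTEC, 90 of 401 Aire mTEC, 62 of 688 Ccl21a mTEC, 7 of 115 keratinocyte cells and 739 of 1801 thymocytes lay within 1.5 times of their threshold. Over cells, the median of fibroblast-marker UMIs per 10000 was 0.811 to 4.96 in the 7 epithelial classes and 138 in mesothelium, and the median of epithelial-marker UMIs was 0 in each fibroblast class. No doublet caller was run. Cells passing gates of more than 1 lineage were left out, with mesothelial and mural cells as exceptions. Mesothelial cells, kept if they had no Epcam UMI, could also pass the fibroblast or epithelial gate. Mural cells, kept if they had no Pdgfra UMI, could also pass the fibroblast gate. Doublets within a lineage remain, and doublets of mesothelial or mural cells with fibroblasts may remain.

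Counts were summed per class and library (30 sums) and tested with edgeR 4.0.16 (quasi-likelihood test, TMM scaling, filterByExpr, library as a block, 14 residual degrees of freedom), with Benjamini-Hochberg adjustment over 11965 genes and a threshold of 0.05. Fibroblasts stand for the mean of 4 class coefficients, thymic epithelium for 3 and mTEC for 2, on the log scale. Fibroblasts that fell in none of the 4 classes (699 and 1054 cells) entered no comparison of gated classes. The script was checked on simulated counts. Values within 1 library are differences of log2 CPM with a prior count of 2 and have no test. Each library holds every class, so the replicate number is the block by design. All 7 members are named; listed pathway genes are named up to 4 per direction by fold, and 3 genes most like each member, leaving out markers; results for some listed genes are not reported here. Rdh10 in mesothelium was named after its value was seen. Members and lists were chosen with earlier results of these data known. Gene positions are from GENCODE (GRCm38). DESeq2 1.42.0 served as an alternative.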

Additional observations from a re-analysis of the deposited data

How the results depend on the processing

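Up to 9 other settings were tried for each comparison, and 168 of 197 values of single members (called fold changes and highest levels) kept their direction and their side of the threshold or stayed within the spread of the libraries, and 71 of 89 counts stayed within 1.5 times. Within 1 library, 27 values of single members moved by more than the spread of the libraries, 1 turned and 30 did neither. With cells carrying 2 or more thymocyte markers left out, members called fell to 3 in fibroblasts against thymic epithelium (Dhrs3 and Crabp1 did not pass and Aldh1a2 was below the filter on low counts) and to 0 in tuft cells against mTEC (edgeR; 1 at an unadjusted p under 0.05), and mural cells had 1. With Leiden clusters in place of gates, where fibroblasts are the mean of a Pi16 class and an unclassed fibroblast class rather than of 4 classes, the counts were 2 in fibroblasts against thymic epithelium and 1 each in endothelium, keratinocyte and tuft cells, and Crabp1 in fibroblasts against thymic epithelium turned to 0.57. With no filter on low counts they were 4 in mesothelium, 1 in mural cells, 2 in Inmt/Penk against Cxcl14/Col15a1 fibroblasts, 2 in Pi16 against Inmt/Penk fibroblasts and 5 in tuft cells. The DESeq2 Wald test called 1 in cTEC and 1 in tuft cells, and the stricter marker gate 4 in tuft cells. Without the replicate block, tuft cells had 1 call, with Aldh1a3 at an adjusted p of 0.0881, and Dhrs3 in keratinocyte cells had 0.0501; no other member call changed. Cyp26b1 in keratinocyte cells against mTEC turned to -1.49 with the stricter gate and to -4.72 with the cell holding the most UMIs left out, an alternative added after seeing the data that left 1 call there; it was -2.59 in library 2 and 4.52 in library 1. Pi16 fibroblasts with both Aldh1a1 and Aldh1a3 numbered 7 after thinning and 233 before it. The class with the highest level was the same for all 7 members without library 2, for 6 without library 1 and with the stricter gate, and for 5 with stricter cell filters, where mesothelium had under 10 cells in library 2; by share of cells it was the same for 6 at 500 and at 2000 UMIs. Mesothelium could not be compared under the stricter cell filters, without thymocyte-marker cells or by clusters, nor the fibroblast classes by clusters. The cause of these changes was not tested. Counts of called pathway genes stayed within 1.5 times in 67 of 84 cases, an alternative added after seeing the data. Values within 1 library leave no residual degrees of freedom and have no test. Mural cells (28 and 45), microfold cells (21 and 28) and mesothelium of library 2 (18) had the fewest cells, which limits their precision.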

Other observations

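The retinoid genes were also read in epithelial cells split by whether they held a UMI of Ackr4, an atypical chemokine receptor listed among the markers of an Ackr4/Trp63 epithelial state; the split was chosen after the values were seen. Aldh1a1 had 32.1 CPM [25.9 to 39.5] in the 149 Ackr4-positive cells of library 1, against 4.02 CPM [2.97 to 5.31] in the 846 others. In library 2 it had 35.2 CPM [25.3 to 47.8] in 121 Ackr4-positive cells, against 9.80 CPM [7.50 to 12.6] in 1153 others. The intervals did not overlap in either library; they cover counting error only, and no test was run. The split also picks deeper cells. Median depths were 14205 and 6046 UMIs in Ackr4-positive cells and 11900 and 2517 in the others. At 1000 UMIs per cell, Aldh1a1 was seen in 3.36% of Ackr4-positive cells, against 0.709% of the others, in library 1 (5 and 6 cells). In library 2 the shares were 2.48% and 1.91% (3 and 22 cells). So few positive cells cannot show whether the difference remained at equal depth, and this was not tested. Per 1000 fibroblast-marker UMIs, Aldh1a1 amounted to 47.7 and 29.1 in Ackr4-positive cells, against 12.03 and 7.62 in the others. Dhrs3 had 129 and 110 CPM in Ackr4-positive cells, against 34.5 and 47.7 CPM in the others. The split ran over all epithelial cells, gated cTEC included, and cTEC had 125 and 118 CPM of Dhrs3. Whether the Dhrs3 difference goes beyond that between cTEC and other epithelium was not tested. Crabp1 was lower, with 2.12 and 30.9 CPM in Ackr4-positive cells, against 72.3 and 62.8 CPM in the others. Its UMIs lay in 3 of 149 and 5 of 121 Ackr4-positive cells, and in 48 of 846 and 48 of 1153 others. Aire had 21.9 and 18.0 CPM in Ackr4-positive cells, against 294 and 225 CPM in the others, and Crabp1 was highest in Aire mTEC. Whether the Crabp1 difference goes beyond the share of Aire mTEC was not tested. Crabp2 had 17.7 and 6.01 CPM in Ackr4-positive cells, against 18.6 and 23.1 CPM in the others. Of the epithelial cells outside all 7 classes, 65 of 193 and 60 of 394 were Ackr4-positive, and they held 72 of the 92 and 38 of the 63 Aldh1a1 UMIs of those cells.

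Some UMIs of the 7 genes lay in cells assigned to no lineage, because they passed no lineage gate, passed more than 1 or passed a gate of other blood cells. In library 1, 538 such cells held 128 UMIs of Aldh1a2 in 19 cells and 305 UMIs of Crabp1 in 15 cells. In library 2, 2867 such cells held 26 UMIs of Aldh1a2 in 16 cells and 153 UMIs of Crabp1 in 66 cells.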
